A study of Mus musculus with 22 samples.

Results

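Hif1a, Vegfa, Prok2 and Hgf are the hypoxia and angiogenic factor genes followed here, 4 of the 655 endogenous genes on a mouse myeloid transcript panel, chosen by name and read across all 5 treatment groups of one study. Hif1a encodes the oxygen-regulated subunit of the transcription factor HIF-1, and Vegfa encodes VEGF-A, the main growth factor for blood vessels. Prok2 encodes prokineticin 2, also called Bv8, a secreted angiogenic factor of neutrophil-like myeloid cells, and Hgf encodes hepatocyte growth factor, the ligand of the receptor Met. In low oxygen the HIF-1 protein escapes degradation, pairs with its partner ARNT and binds a short DNA element at its targets, of which Vegfa is a classical one. Hif1a itself is regulated largely at the level of protein, so that its transcript is not a measure of HIF-1 activity. In tumours of mice, neutrophils and granulocytic myeloid-derived suppressor cells (G-MDSCs) are known to release Bv8 in response to the cytokine G-CSF through STAT3, and the release of VEGF-A, Bv8 and the matrix protease MMP-9 is one way in which these cells promote vessel growth.

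The RNA came from G-MDSCs, neutrophil-like suppressor cells that were purified over magnetic columns as Ly6G+ cells from mammary tumours. Those tumours had been seeded with the NT2.5 line, itself taken from a mammary tumour that arose spontaneously, in the mammary fat pad of female FVB-Neu-N mice aged 7 to 8 weeks at implantation, a strain tolerant of the neu (HER2) antigen that these tumour cells carry. The 22 samples fell into 5 groups: entinostat with anti-PD-1 and anti-CTLA-4 (ENT + PD1 + CTLA4, the triple combination, 4 samples), entinostat with anti-CTLA-4 (ENT + CTLA4, 4), entinostat with anti-PD-1 (ENT + PD1, 4), entinostat alone (ENT, 4) and vehicle (6). Entinostat blocks class I histone deacetylases and was given by gavage each day at 5 mg/kg. The antibodies act on the T cell checkpoint receptors PD-1 and CTLA-4 and were each given at 100 µg per mouse 2 times a week. All dosing ran for 3 weeks from 3 days after implantation. Vehicle mice received 0.5% methylcellulose and isotype antibodies. No group had an antibody without entinostat, and the labels do not say whether an anti-HER2 antibody, used in part of the wider study, was given to any of these mice. The stated question was which transcripts of these cells changed with treatment, in view of their impaired function. No label links a sample to an animal of its own, so p-values measure the spread between these samples, which may be technical.

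The regulatory sequence just upstream of each gene is shown because the core of the HIF-1 binding element is short enough to be read by eye. The RefSeq tables of the mouse build GRCm38.p6 held a window for each of the 4 genes. For each gene the 250 bases before its first annotated start are given 5′ to 3′ on the strand of the gene, with capitals marking every match to the HIF core letters ACGTG or GCGTG on either strand, so that CACGT and CACGC are also marked. The palindrome CACGTG holds ACGTG on both strands and counts as 2 overlapping matches.
Hif1a, chr12:73907617-73907866, plus strand: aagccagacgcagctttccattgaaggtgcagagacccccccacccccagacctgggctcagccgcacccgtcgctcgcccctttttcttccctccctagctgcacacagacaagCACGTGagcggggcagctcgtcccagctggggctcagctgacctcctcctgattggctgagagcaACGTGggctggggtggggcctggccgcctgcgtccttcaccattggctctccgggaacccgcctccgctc
Vegfa, chr17:46032378-46032627, minus strand: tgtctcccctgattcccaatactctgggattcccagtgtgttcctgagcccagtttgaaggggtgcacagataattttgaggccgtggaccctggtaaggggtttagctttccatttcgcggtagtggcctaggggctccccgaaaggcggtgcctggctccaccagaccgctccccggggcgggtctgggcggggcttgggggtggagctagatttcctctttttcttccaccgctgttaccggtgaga
Prok2, chr6:99726393-99726642, minus strand: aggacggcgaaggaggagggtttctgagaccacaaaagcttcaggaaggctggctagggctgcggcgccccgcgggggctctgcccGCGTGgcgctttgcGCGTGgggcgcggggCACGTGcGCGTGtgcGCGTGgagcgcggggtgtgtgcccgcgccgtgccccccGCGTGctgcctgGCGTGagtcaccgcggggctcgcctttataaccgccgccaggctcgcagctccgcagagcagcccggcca
Hgf, chr5:16553245-16553494, plus strand: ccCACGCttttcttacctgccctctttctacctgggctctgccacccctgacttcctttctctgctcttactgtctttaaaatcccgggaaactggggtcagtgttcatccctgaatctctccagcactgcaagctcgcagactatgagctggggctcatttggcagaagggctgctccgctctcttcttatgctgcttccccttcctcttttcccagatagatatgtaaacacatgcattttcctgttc

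The Prok2 window was the richest, with 6 matches to GCGTG and 2 to ACGTG, both of these from 1 palindrome. The Hif1a window had 3 matches to ACGTG, 2 of them from a palindrome, the Hgf window had 1 match to GCGTG near its far end, and the Vegfa window had none. A second annotated window of Vegfa held 1 match to each core. It lies at chr17:46025164-46025413 on the minus strand, downstream of the first start, so these matches do not lie before the gene. A second window of Hgf, also downstream of its first start, held none. Base composition differed widely: the 250 bases were 73.6% G or C for Prok2, 66.4% for Hif1a, 59.2% for Vegfa and 50.8% for Hgf. Among 32851 mouse promoter windows of the same length, 38.6% held at least 1 match to either core, 28.2% held GCGTG and 16.6% held ACGTG. The letters TTCNNNGAA, the usual core for STAT factors, were in 7.02% of these windows and in no window of the 4 genes. A match is a run of letters and not evidence of binding, and the absence of one describes only this window.

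Levels are normalized counts as deposited, on a linear scale. Testing was limited to the 420 genes whose mean log2 level in some group was above that of 29.3 normalized counts, which is the mean plus 2 SD of the negative control probes on the log2 scale. Between 23296 barcodes (triple combination sample 2) and 443871 barcodes (ENT + CTLA4 sample 1) were counted per sample. A single barcode was worth 9.78 normalized counts in that lowest sample and 0.400 in the deepest sample, so low levels were coarse in some samples. Pairs of columns carried the same name in ENT + CTLA4 and in the triple combination, and these samples are called a and b. The samples ran on 2 cartridges. Cartridge 1 held all ENT and ENT + PD1 samples, vehicle samples 1, 2 and 4 and triple combination sample a, and cartridge 2 held all others. Triple combination sample a lay by lane between vehicle samples 2 and 4, and vehicle sample 3 beside the other triple combination samples. The groups of the labels were kept, and leaving out both moved 1 call on the 4 genes, given with Hgf.

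The cell label was checked against fixed markers. S100a9, a subunit of the neutrophil protein calprotectin, had means of 9488, 5209, 15777, 18565 and 5879 normalized counts in the triple combination, ENT + CTLA4, ENT + PD1, ENT and vehicle. Ly6g, the antigen used to purify the cells, had group means of 4.37 to 19.2 normalized counts, below the background limit in every group, as were Mmp8, Mpo and Elane of the 16 neutrophil markers on the panel. Cdh1, which encodes the epithelial adhesion protein E-cadherin and was the only epithelial marker measured, stood between 717 and 1310 normalized counts in all 22 samples. In such bulk samples, fewer cells of a type and less RNA per cell cannot be told apart.

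Hif1a and Vegfa were far above background in all 22 samples, and Prok2 and Hgf were near it. Prok2 rested on 2 to 35 barcodes a sample and Hgf on 4 to 25, against 58 to 1179 for Hif1a and 32 to 417 for Vegfa. Prok2 was above the brightest of the 8 negative controls of its own lane in 21 of 22 samples and Hgf in 14 of 22. Prok2 reached the limit for testing only through the means of ENT and ENT + PD1, and Hgf only through that of ENT, so their place among the tested genes already depended on the groups in which they were high. For all 4 genes the level differed over the 5 groups by limma's moderated F test, with adjusted p = 0.0297 for Hif1a, 0.00756 for Vegfa, 0.00764 for Prok2 and 0.00654 for Hgf, in a panel where 33.1% of tested genes did. The groups lie largely along the cartridges, and with cartridge as a block none of the 4 passed (F-test adjusted p = 0.239 for Hif1a, 0.0525 for Vegfa, 0.0861 for Prok2 and 0.0588 for Hgf). With each sample centred on its median, Hif1a (0.657) and Vegfa (0.439) did not pass either, nor did Prok2 after background subtraction (0.103).

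**Figure D1:**
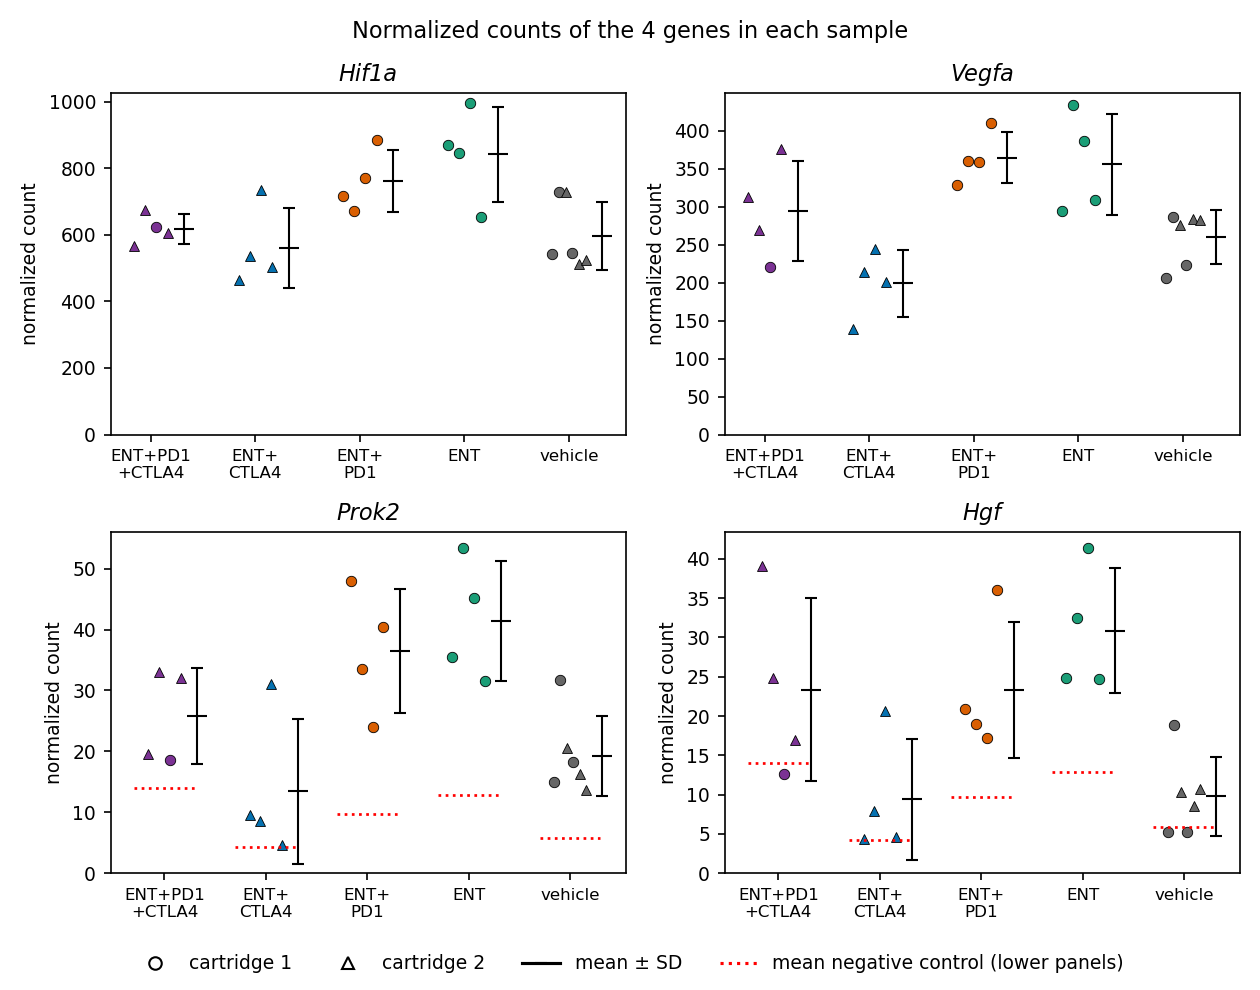
Normalized counts (linear axis from 0) of Hif1a, Vegfa, Prok2 and Hgf in every sample, by group; circles are cartridge 1, triangles cartridge 2, bars the mean and SD of 4 samples (6 for vehicle), and dotted red lines in the lower panels the mean negative control of each group. The means of ENT and ENT + PD1 are the highest for Hif1a, Vegfa and Prok2, and 3 of the 4 ENT + CTLA4 samples lie at or below 9.59 for Prok2 while sample a stands at 31.0.

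Hif1a, the regulator, was high in every sample and varied least of the 4, with a coefficient of variation over the 22 samples of 21.5%, against 25.9% for Vegfa, 50.0% for Prok2 and 61.3% for Hgf. Its levels were 623, 607, 567 and 674 normalized counts in triple combination samples a, b, 2 and 4, and 734, 463, 505 and 538 in ENT + CTLA4 samples a, 1, b and 3. The ENT + PD1 samples 1 to 4 had 718, 671, 771 and 886, the ENT samples 1 to 4 had 870.0, 847, 997 and 654, and the 6 vehicle samples had a lowest of 512, a median of 544 and a highest of 730 normalized counts. Of the ENT samples, 3 lay above every vehicle sample and ENT sample 4 lay within the vehicle range. Means were 842 ± 142 normalized counts in ENT and 597 ± 103 in vehicle (SD, n = 4 and 6). Hif1a rose in ENT over vehicle by 0.50 ± 0.15 on the log2 scale (SE, limma adjusted p = 0.0188), a 1.41-fold difference on the log2(normalized count + 1) scale. In ENT + PD1 the difference from vehicle was 0.36 ± 0.15 and did not pass the test (adjusted p = 0.0991).

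The order of Hif1a means was ENT, ENT + PD1 (762 ± 92.4 normalized counts), the triple combination (618 ± 44.2), vehicle and ENT + CTLA4 (560 ± 120; SD, n = 4 each). Ranges overlapped between all neighbours in this order, and only the step between ENT + PD1 and the triple combination was larger than the larger SD of its pair. The ENT call was lost without ENT sample 3 (adjusted p = 0.0757) or without both vehicle samples V1 and V2 (0.0898), and the ENT + PD1 difference passed without vehicle sample 2 (0.42, adjusted p = 0.0416). Within cartridge 1 the ENT difference was 0.47 (adjusted p = 0.0731), and with cartridge as a block 0.48 (adjusted p = 0.0415).

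Vegfa, the target of HIF-1, was higher in ENT and ENT + PD1 than in vehicle and lowest in ENT + CTLA4. The triple combination samples a, b, 2 and 4 had 220.5, 375, 313 and 269 normalized counts, and ENT + CTLA4 samples a, 1, b and 3 had 244, 139, 200.1 and 214. The ENT + PD1 samples had 328, 361, 359 and 409, the ENT samples had 294, 434, 386 and 308, and vehicle had a lowest of 205, a median of 279 and a highest of 286. All ENT and all ENT + PD1 samples were above all vehicle samples. Groups that do not overlap were found for 17.1% of tested genes in ENT against vehicle and for 9.52% in ENT + PD1 against vehicle. Vegfa rose by 0.45 ± 0.17 on the log2 scale in ENT (SE, limma adjusted p = 0.0479), with means of 355 ± 66.1 and 259 ± 35.6 normalized counts in ENT and vehicle (SD, n = 4 and 6). In ENT + PD1 it rose by 0.50 ± 0.17 (adjusted p = 0.0490), with a mean of 364 ± 33.7 (SD, n = 4).

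Both Vegfa calls were at the edge of the threshold. Leaving out 1 sample ended the ENT call for 14 of the 22 samples (vehicle 1, 3, 4, V1 and V2, ENT 2 and 3, all 4 of ENT + PD1, ENT + CTLA4 b and 3, and triple combination 4), with a highest adjusted p of 0.172 without ENT sample 2. It ended the ENT + PD1 call for 15 (vehicle 1, 4, V1 and V2, ENT 1, 3 and 4, all 4 of ENT + PD1, ENT + CTLA4 b and 3, and triple combination 2 and 4), with a highest of 0.155 without ENT + PD1 sample 4. Without both V1 and V2 neither call held (adjusted p = 0.0748 in ENT and 0.131 in ENT + PD1), nor did they with all 655 genes tested (0.0839 and 0.0899) or after background subtraction (0.0618 and 0.0533). With cartridge as a block the ENT + PD1 difference was 0.67 (adjusted p = 0.0508). Within cartridge 1 the values were 0.57 in ENT (adjusted p = 0.0405) and 0.62 in ENT + PD1 (adjusted p = 0.0732). In the order of Vegfa means, ENT + PD1 and ENT were followed by the triple combination (294 ± 65.9), vehicle and ENT + CTLA4 (199 ± 44.1; SD, n = 4 each). All neighbours overlapped, and only the step between vehicle and ENT + CTLA4 exceeded the larger SD of its pair.

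Prok2, which encodes the neutrophil-derived factor Bv8, was low throughout and highest in ENT. It had 18.5, 32.1, 19.6 and 33.1 normalized counts in triple combination samples a, b, 2 and 4, and 31.0, 9.59, 4.64 and 8.60 in ENT + CTLA4 samples a, 1, b and 3. The ENT + PD1 samples 1 to 4 had 47.9, 33.6, 24.0 and 40.4, the ENT samples 1 to 4 had 35.4, 53.4, 45.2 and 31.5, and vehicle had a lowest of 13.7, a median of 17.3 and a highest of 31.7. ENT sample 4 was just below vehicle sample 2, and the other ENT samples were above every vehicle sample. Within ENT + CTLA4, sample a stood apart above the other samples of its group, and it was also the sample with the highest Hif1a, Vegfa and Hgf there. The value of 19.6 in triple combination sample 2 stood for 2 barcodes, below the mean negative control of that lane.

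Prok2 rose in ENT over vehicle by 1.09 ± 0.36 on the log2 scale (SE, limma adjusted p = 0.0221), with levels of 41.4 ± 9.86 and 19.3 ± 6.57 normalized counts in ENT and vehicle (SD, n = 4 and 6). The ENT + PD1 mean was 36.5 ± 10.2 (SD, n = 4), a log2 difference of 0.90 ± 0.36 that did not pass the test (adjusted p = 0.0783). The negative controls moved in the same direction on the normalized scale, with means of 14.0, 4.27, 9.67, 12.8 and 5.86 normalized counts in the triple combination, ENT + CTLA4, ENT + PD1, ENT and vehicle. After the mean negative control of each sample was subtracted, Prok2 had 28.5 normalized counts in ENT and 13.4 in vehicle, and the log2 difference was 1.10 with adjusted p = 0.150. The ENT call was also lost without ENT sample 2 (adjusted p = 0.0760), ENT sample 3 (0.0657) or both vehicle samples V1 and V2 (0.0926), and the ENT + PD1 difference passed without vehicle sample 2 (adjusted p = 0.0315) or ENT + CTLA4 sample a (0.0135). Within cartridge 1 the ENT difference was 0.94 (adjusted p = 0.0409). In the order ENT, ENT + PD1, triple combination, vehicle and ENT + CTLA4, all neighbours overlapped, and only the step between ENT + PD1 and the triple combination exceeded the larger SD.

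Hgf, the growth factor of the Met receptor, was low throughout and had its highest mean in ENT. It had 12.7, 16.9, 39.1 and 24.8 normalized counts in triple combination samples a, b, 2 and 4, and 20.7, 4.40, 4.64 and 7.98 in ENT + CTLA4 samples a, 1, b and 3. The ENT + PD1 samples 1 to 4 had 21.0, 19.0, 17.3 and 36.0, the ENT samples 1 to 4 had 24.8, 32.5, 41.4 and 24.7, and vehicle had a lowest of 5.20, a median of 9.42 and a highest of 18.8. The ENT samples were all above all vehicle samples, where 17.1% of tested genes had groups that do not overlap. In ENT + PD1 only sample 3 was below the highest vehicle sample. The highest triple combination value, 39.1 in sample 2, stood for 4 barcodes, where the brightest negative control of that lane had 7. By group, Hgf was above the brightest negative control of its lane in 2 of 4 triple combination samples, 3 of 4 ENT + CTLA4, 4 of 4 ENT + PD1, 3 of 4 ENT and 2 of 6 vehicle samples.

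Hgf rose in ENT over vehicle by 1.65 ± 0.39 on the log2 scale (SE, limma adjusted p = 0.00796), with means of 30.9 ± 7.91 and 9.80 ± 5.00 normalized counts in ENT and vehicle (SD, n = 4 and 6). With 4 of the 6 vehicle samples not above the brightest negative control of their lane, the size of this difference is uncertain. The call held without any 1 sample (1.50 to 1.84, highest adjusted p = 0.0353) and under the other 11 settings tried (0.85 to 2.03, highest adjusted p = 0.0409). After background subtraction the means were 18.0 ± 7.25 and 4.54 ± 4.35 in ENT and vehicle, and with all 655 genes tested the adjusted p was 0.0129. In ENT + PD1, Hgf averaged 23.3 ± 8.62 (SD, n = 4) and rose over vehicle by 1.23 ± 0.39 (adjusted p = 0.0352). That second call was lost with all 655 genes tested (adjusted p = 0.0579), with cartridge as a block (0.0508) and without both vehicle samples V1 and V2 (0.131). It was also lost without vehicle samples 1 (adjusted p = 0.0827), 4 (0.0797), V1 (0.0653) or V2 (0.0610), and without ENT + PD1 samples 1 (0.0733), 2 (0.0611) or 4 (0.137). Within cartridge 1 the 2 differences were 1.76 for ENT (adjusted p = 0.0215) and 1.35 for ENT + PD1 (adjusted p = 0.0760). In the order of means, ENT, the triple combination (23.4 ± 11.6), ENT + PD1, vehicle and ENT + CTLA4 (9.43 ± 7.68), all neighbours overlapped, and only the step between ENT + PD1 and vehicle exceeded the larger SD.

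**Figure D2:**
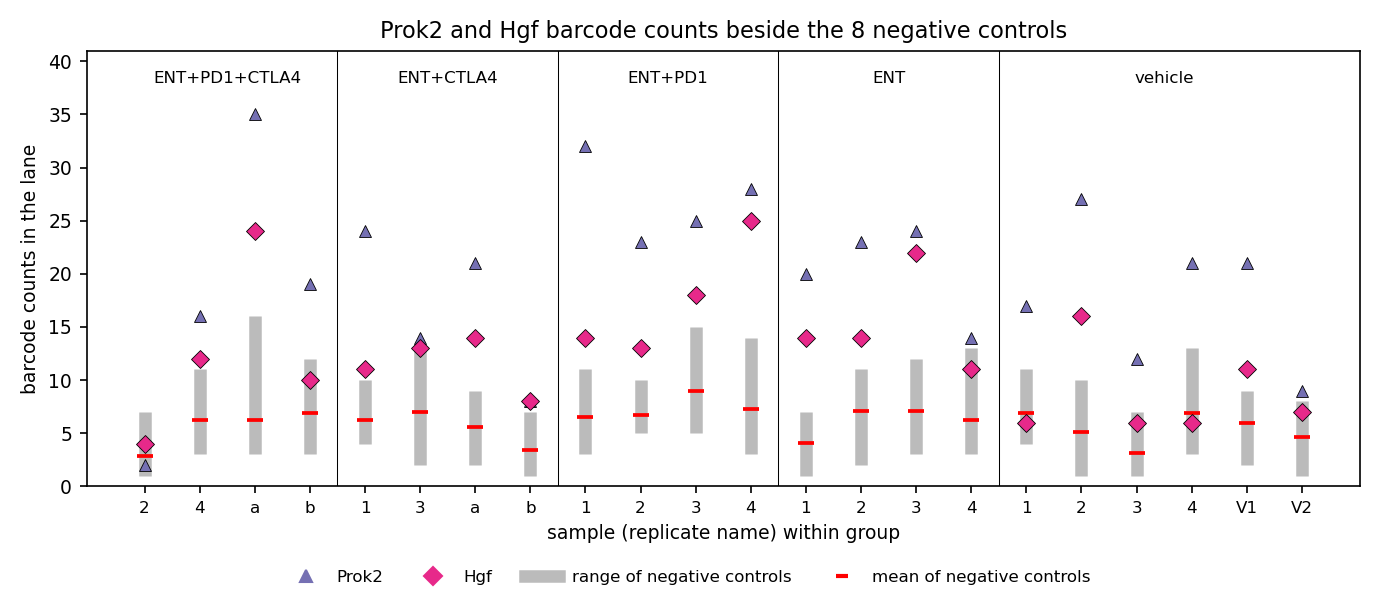
Barcodes counted for Prok2 (triangles) and Hgf (diamonds) in each of the 22 samples (y axis, barcodes in the lane), beside the range (grey) and mean (red) of the 8 negative controls of the same lane. Hgf lies within or at the edge of the grey bars in 8 samples, 4 of them vehicle, and Prok2 in triple combination sample 2 alone.

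In ENT against vehicle all 4 genes were thus called higher, on a panel where 40.0% of the tested genes were called, 36.2% higher and 3.81% lower. In ENT + PD1 against vehicle Vegfa and Hgf were called, with 21.9% of tested genes called, 20.5% higher and 1.43% lower. On the deposited scale the median gene also differed between these groups and vehicle. Whether this came from the scaling or from the make-up of the samples was not tested. The median log2 difference of all 420 tested genes was 0.50 in ENT and 0.29 in ENT + PD1, so that Hif1a and Vegfa moved in ENT as the median gene did, while Prok2 and Hgf moved by more. When each sample was centred on its median, the ENT differences were -0.043 for Hif1a and -0.092 for Vegfa, neither of which passed (adjusted p = 0.832 and 0.684), 0.55 for Prok2 (adjusted p = 0.0898), and for Hgf a difference that was still called. Quantile normalization also turned Hif1a and Vegfa negative (-0.092 and -0.15). Of the 4 genes, only Hgf had a rise in ENT that was called on every scaling tried. It had entered the tested genes only through its ENT mean. The negative controls were also higher in ENT than in vehicle (means of 12.8 and 5.86 normalized counts). Background subtraction was not combined with either rescaling, so the call after rescaling does not separate Hgf from background.

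ENT + CTLA4 and the triple combination gave no call against vehicle for any of the 4 genes, and limma called 0 of 420 genes in either comparison (6 and 59 genes had an unadjusted p under 0.05 in ENT + CTLA4 and in the triple combination). In ENT + CTLA4 the log2 differences were -0.097 for Hif1a (95% interval -0.42 to 0.22), -0.40 for Vegfa (-0.76 to -0.031), -0.75 for Prok2 (-1.49 to -0.0012) and -0.18 for Hgf (-1.01 to 0.64), with adjusted p of 0.960 to 0.971. In the triple combination they were 0.064 for Hif1a (-0.26 to 0.39, adjusted p = 0.795), 0.17 for Vegfa (-0.20 to 0.53, adjusted p = 0.537), 0.41 for Prok2 (-0.34 to 1.15, adjusted p = 0.482) and 1.17 for Hgf (0.35 to 2.00, adjusted p = 0.320). The Hgf interval in the triple combination includes the 1.65 found in ENT. The Hif1a interval in ENT + CTLA4 overlaps that in ENT (0.17 to 0.82), and ENT + CTLA4 was not tested against ENT directly. Within cartridge 2 the differences in ENT + CTLA4 were -0.074 for Hif1a, -0.52 for Vegfa, -0.60 for Prok2 and -0.30 for Hgf, and in the triple combination 0.082, 0.17, 0.69 and 1.29 for the same genes, none of them called. The 4 comparisons with vehicle share the same 6 vehicle samples.

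**Figure D3:**
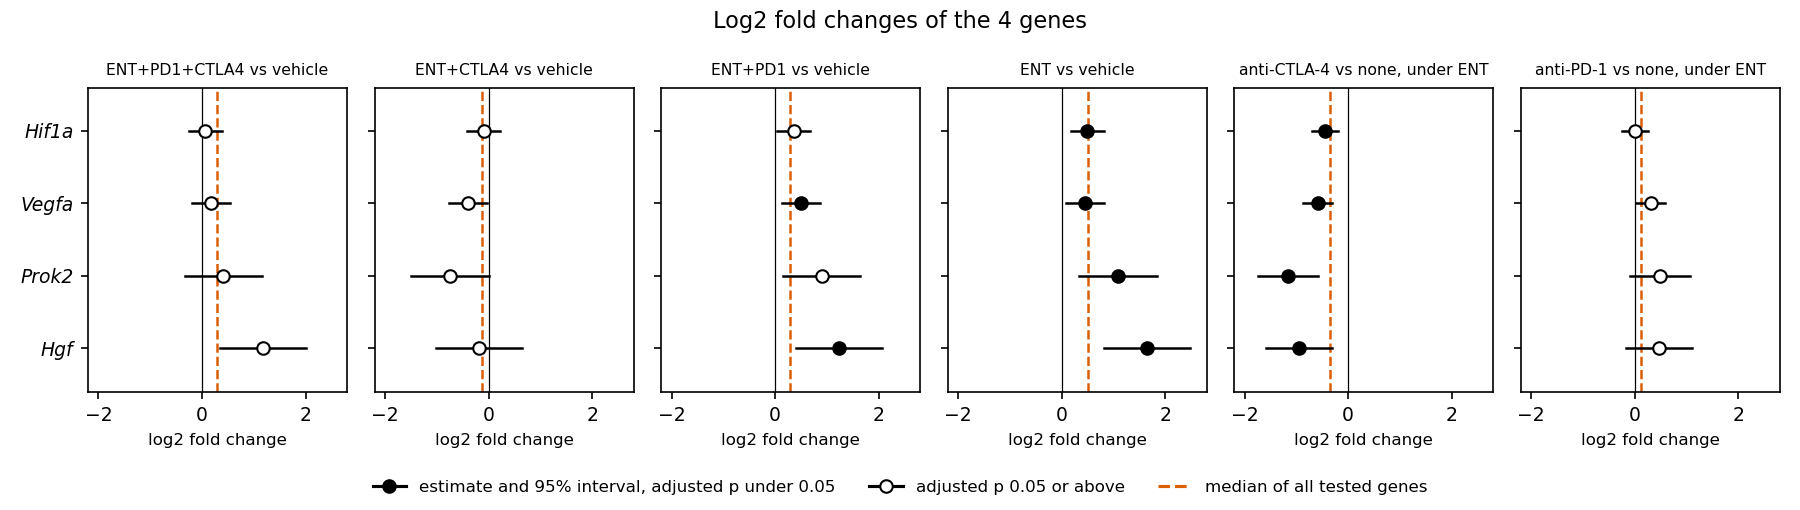
Log2 fold changes (x axis) of the 4 genes with 95% intervals in 6 comparisons, from limma with 4 samples a treated group and 6 vehicle samples, or 8 against 8 for the antibody contrasts; filled points have an adjusted p under 0.05, and the dashed line is the median of all 420 tested genes. All 4 genes are filled in ENT against vehicle and, on the negative side, for anti-CTLA-4.

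Among the 4 entinostat groups, the effect of anti-CTLA-4 was taken as the mean of the triple combination and ENT + CTLA4 minus the mean of ENT + PD1 and ENT. All 4 genes were lower with anti-CTLA-4, with log2 differences of -0.45 ± 0.12 for Hif1a (SE, limma adjusted p = 0.00790), -0.59 ± 0.13 for Vegfa (0.00403), -1.16 ± 0.28 for Prok2 (0.00459) and -0.94 ± 0.31 for Hgf (0.0244). On the panel 32.1% of tested genes were called in this contrast, 30.0% lower and 2.14% higher, and the median of all tested genes was -0.35. For Hif1a and Prok2 all 8 samples with anti-CTLA-4 were below the mean of the 8 without, and for Vegfa and Hgf 7 of 8 were, while the 2 sets overlapped for each gene (7.14% of tested genes had sets that did not). The difference was of fold 0.73 for Hif1a, 0.67 for Vegfa, 0.45 for Prok2 and 0.52 for Hgf.

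This contrast lies almost along the cartridges, since 7 of the 8 samples with anti-CTLA-4 ran on cartridge 2 and all 8 without it on cartridge 1. With cartridge as a block, none of the 4 genes was called (Hif1a -0.41, adjusted p = 0.112; Vegfa -0.88, 0.0643; Prok2 -1.15, 0.0758; Hgf -1.36, 0.0643), and limma called 0 genes of the panel. No cartridge gives a within-cartridge value, because cartridge 2 held no sample without anti-CTLA-4 that had received entinostat and cartridge 1 held only 1 with it. Vehicle samples ran on both: on cartridges 1 and 2 the vehicle medians were 545 and 524 normalized counts for Hif1a, 223 and 282 for Vegfa, 18.2 and 16.3 for Prok2 and 5.31 and 10.3 for Hgf. The Hgf call was also lost without triple combination sample a (-0.82, adjusted p = 0.0606; 0.0657 when vehicle sample 3 was left out too), ENT sample 3 (0.0526), ENT + PD1 sample 4 (0.0567), ENT + CTLA4 sample 1 (0.0618) or ENT + CTLA4 sample b (0.0606). After median centring the differences were -0.048 for Hif1a and -0.19 for Vegfa, which did not pass, while those of Prok2 and Hgf were still called. Quantile normalization ended the Hgf call (-0.39, limma adjusted p = 0.0547) and kept that of Prok2. Prok2 and Hgf had reached the limit for testing only through groups without anti-CTLA-4.

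Anti-PD-1 under entinostat moved none of the 4 genes past the threshold, with log2 differences of 0.013 for Hif1a (95% interval -0.24 to 0.26), 0.31 for Vegfa (0.023 to 0.59), 0.48 for Prok2 (-0.095 to 1.06) and 0.47 for Hgf (-0.17 to 1.11) and limma adjusted p of 0.969, 0.692, 0.692 and 0.692. Limma called 0 of 420 genes in this contrast (12 had an unadjusted p under 0.05). The interaction of the antibodies, which asks whether adding anti-PD-1 changed a gene differently with and without anti-CTLA-4, was 0.30 ± 0.24 for Hif1a, 0.51 ± 0.27 for Vegfa, 1.35 ± 0.55 for Prok2 and 1.77 ± 0.61 for Hgf (SE), with adjusted p of 0.366, 0.257, 0.252 and 0.250 and 0 of 420 genes called (81 had an unadjusted p under 0.05). Without ENT + CTLA4 sample a the interaction was 1.83 for Prok2 (adjusted p = 0.0126) and 2.21 for Hgf (adjusted p = 0.0145), and 152 genes of the panel were called. For Hif1a and Vegfa no left-out sample gave a call. With limma's sample weights all 4 passed (0.54 for Hif1a, 0.83 for Vegfa, 2.07 for Prok2 and 2.15 for Hgf, highest adjusted p = 0.00951). Other settings went the other way. Median centring gave -0.34 for Hif1a and -0.13 for Vegfa, and quantile normalization gave -0.028 for Prok2. After background subtraction the interaction was 0.61 for Prok2 (limma adjusted p = 0.651) and 1.41 for Hgf (0.384).

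**Figure D4:**
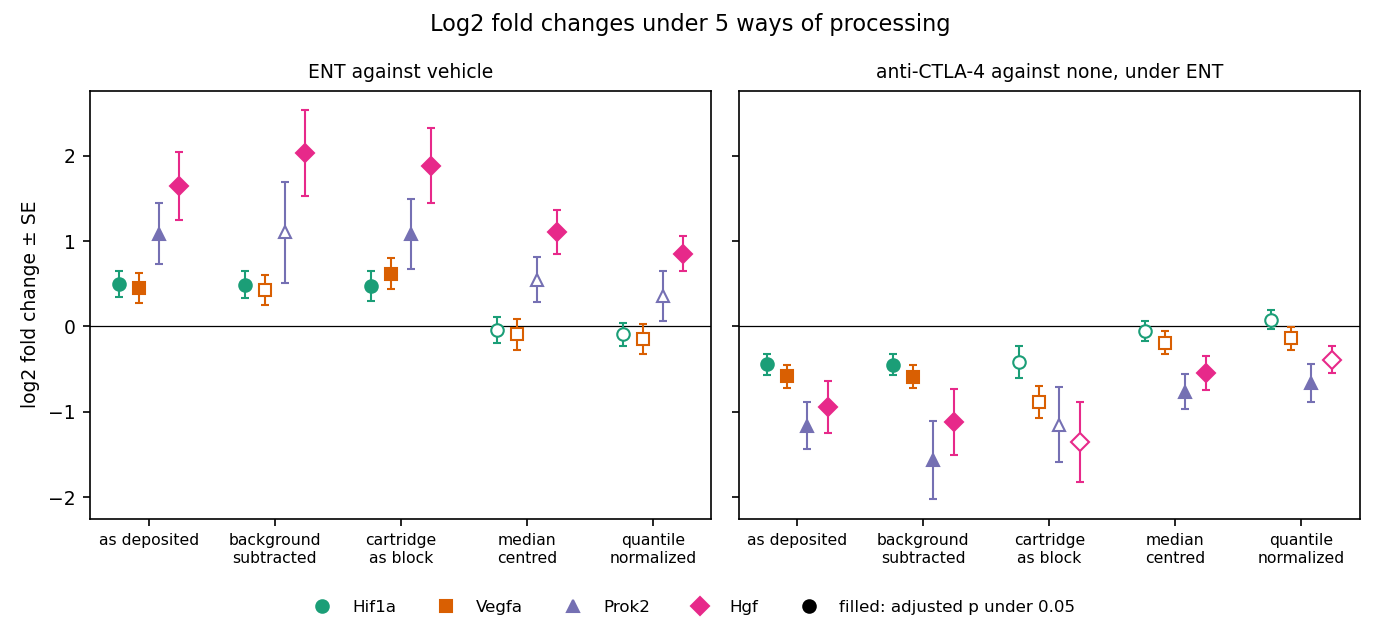
Log2 fold changes with SE (y axis) of the 4 genes under 5 ways of processing (x axis), for ENT (4 samples) against vehicle (6) at left and for anti-CTLA-4 (8 samples) against none (8) under entinostat at right; filled symbols have an adjusted p under 0.05. Hgf is filled in ENT throughout, Hif1a and Vegfa lie near 0 after median centring, and no symbol is filled for anti-CTLA-4 with cartridge as a block.

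Other genes of these pathways, from lists drawn up with earlier results of these data known, moved in both directions. Of 34 listed hypoxia response genes 4 were on the panel and 3 were tested. Cxcr4, a chemokine receptor induced by hypoxia, rose in ENT over vehicle by 1.78 ± 0.36 on the log2 scale (limma adjusted p = 0.00558), and Mif, a cytokine and a known HIF target, fell by 0.32 (adjusted p = 0.0390). Cxcr4 also rose in ENT + PD1 (1.55, adjusted p = 0.0207) and was lower with anti-CTLA-4 (-1.30, adjusted p = 0.00403), whereas Mif had -0.12 (0.485) and -0.048 (0.681). In ENT against vehicle 1 of the 3 tested genes was called higher and 1 lower, where 36.2% and 3.81% of all tested genes were, and 3 genes are too few to set against these shares.

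Around VEGF, the receptor gene Flt1 was the only other tested gene, at -0.12 in ENT against vehicle (adjusted p = 0.731) and -0.54 in ENT + PD1 (0.181), and the lymphatic ligand gene Vegfc was below the limit. Around Bv8, Csf3r, the receptor for G-CSF, rose in ENT by 1.72 ± 0.37 (adjusted p = 0.00769) and Stat3, the factor downstream of it, by 0.33 ± 0.11 (0.0218), while Csf3, which encodes G-CSF itself, stood at 0.41 (0.260). Stat3 and Csf3 thus moved by less than the median of all tested genes (0.50), of which 36.2% were called higher. Csf3r is also one of the listed neutrophil markers. With anti-CTLA-4, Csf3r was lower with a log2 difference of -1.28 (adjusted p = 0.00403) and Stat3 with -0.24 (0.0289), where the median of all tested genes was -0.35. With cartridge as a block, 0 genes of the panel were called for anti-CTLA-4. Around HGF, the receptor gene Met fell by 0.57 in ENT (adjusted p = 0.0262), the opposite direction to its ligand, and Plau, which encodes the protease urokinase, fell by 0.60 (0.0154). Plaur, the urokinase receptor gene, rose by 1.07 ± 0.38 (0.0334). With anti-CTLA-4, Plaur was lower (-0.98, adjusted p = 0.0171), and Met had 0.38 and did not pass (0.0564).

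Of 38 other angiogenic factors listed, 23 were on the panel and 19 were tested, and 6 were called higher and 0 lower in ENT against vehicle, near the 36.2% and 3.81% of all tested genes. Their median was 0.50, the same to 2 decimals as that of all tested genes. Il1b, the gene of the inflammatory cytokine interleukin-1 beta, rose by 1.67 ± 0.40 (limma adjusted p = 0.00796), Mmp9, the matrix protease gene, by 1.48 ± 0.40 (0.0108), Tnf by 1.55 ± 0.45 (0.0151) and Ptgs2, the gene of the prostaglandin synthase COX-2, by 1.34 ± 0.42 (0.0204). In ENT + PD1, 5 were called higher and 1 lower (Tgfa, the gene of transforming growth factor alpha, named after its value was seen), beside 20.5% and 1.43% of all tested genes. With anti-CTLA-4 6 were called lower and 0 higher, beside 30.0% and 2.14%.

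Cell type markers moved with the same contrasts. Of 16 neutrophil markers on the panel 12 were tested. Camp passed the limit only in ENT, and Fpr1 only in ENT and ENT + PD1. Their place among the tested genes thus depended on the groups in which they were high. In ENT against vehicle 12 of 12 tested neutrophil markers and 6 of 6 pan-leukocyte markers were called higher (medians 1.81 and 1.45 on the log2 scale), against 36.2% of all tested genes, and Cdh1 was called lower, at 804 ± 75.5 against 1077 ± 159 normalized counts in ENT and vehicle (SD, n = 4 and 6, -0.41, adjusted p = 0.0418). In ENT + PD1 11 of 12 and 5 of 6 were called higher, against 20.5% of all tested genes, and with anti-CTLA-4 12 of 12 and 6 of 6 were called lower (medians -1.34 and -1.29), against 30.0%. The summed pan-leukocyte level ran from 1766 to 3137 normalized counts in the triple combination, 623 to 3095 in ENT + CTLA4, 3571 to 4726 in ENT + PD1, 3357 to 5036 in ENT and 854 to 3740 in vehicle. The summed endothelial level, over 5 genes, ran from 238 to 936 normalized counts in ENT and 100.1 to 436 in vehicle. All 5 were above the background limit in ENT, while 4 (Cdh5, Ptprb, Sele and Selp) were below it in vehicle. Over the 22 samples the log2 levels of the 4 genes had Pearson r of 0.86 to 0.93 with the mean of the pan-leukocyte markers and of -0.66 to -0.85 with Cdh1, given as a description of samples that share one scaling. The part of these markers in the results was not tested.

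Set against the mean log2 level of the pan-leukocyte markers in the same sample, Hif1a and Vegfa differed more between ENT and vehicle than Prok2 and Hgf did. Hif1a stood 0.96 ± 0.20 log2 units above that mean in ENT and 1.86 ± 0.53 above it in vehicle, and Vegfa stood at -0.28 ± 0.084 in ENT and 0.66 ± 0.62 in vehicle (SD, n = 4 and 6). Prok2 stood at -3.36 ± 0.092 in ENT and -3.06 ± 0.40 in vehicle, and Hgf at -3.78 ± 0.20 in ENT and -4.03 ± 0.41 in vehicle. Relative to these markers, Hif1a and Vegfa were thus lower in ENT than in vehicle by more than the SD of either group. All 6 markers were themselves called higher in ENT (median 1.45), so a gene that rose less comes out lower. Cdh1 was also high in every sample, so these values do not give a level per leukocyte. For Prok2 and Hgf the gap was under the vehicle SD but above the smaller ENT SD. Prok2 and Hgf also lay near the negative controls, whose mean was higher in ENT than in vehicle. These values are a description with no test.

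The panel genes whose log2 levels were most like those of each gene over the 22 samples differed among the 4. For Hgf they were Olr1 (Pearson r = 0.96), Fcgr4, Itga5, Cxcr2 and Il6ra (0.95 each), and for Prok2 they were Nfkbiz (0.94), Clec5a, Tlr13, Tnfaip3 and Alox5 (0.93 each). These likenesses largely held after each sample was centred on its median, with r of 0.87 to 0.92 for the genes like Hgf and 0.83 to 0.86 for those like Prok2. For Hif1a they were Nfil3 (0.94), Furin (0.93), Rhog, Laptm5 and Stat6 (0.92 each), and after centring only Furin stayed above 0.58 (0.82) and Laptm5 turned to -0.18. For Vegfa they were Was, Dusp1 (0.87 each), Itgb2, Vav1 and Ptprc (0.86 each), and after centring Dusp1 had 0.50 and the others 0.15 to 0.33. The median r with all other tested genes was 0.64, 0.57, 0.62 and 0.70 for Hif1a, Vegfa, Prok2 and Hgf, so a high r was common on the deposited scale.

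Among themselves the 4 genes had r of 0.72 to 0.82 over the 22 samples on the deposited scale. After median centring, Prok2 and Hgf had r = 0.60, the highest of the 6 pairs, while Hif1a had 0.22 with Vegfa, -0.13 with Prok2 and -0.44 with Hgf. Vegfa had 0.15 with Prok2 and 0.065 with Hgf. The points share the lane scaling and the treatment groups, and no test was made.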

How the data were processed

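RNA of purified G-MDSCs was measured with the NanoString Mouse Myeloid CodeSet, in which barcodes bound to each transcript are counted without amplification, per the labels' protocols. The deposited values are normalized counts (unit: signal), linear in scale. How the authors normalized them, and with what software, is not given in the sources used here. Of tools, the submitters' processing notes list limma alone, without version or role. The housekeeping genes had nearly level geometric means (172 to 194 normalized counts), so a change in them would shift every other gene. Within each sample, 100% of the deposited signal values of genes above the floor of 1 and up to 200, and 100% of those above 200 and up to 1000, were whole multiples of a fixed step, within 0.1 of that step. Division by it gave the barcode numbers, which were used for depth and to set Prok2 and Hgf against the negative controls of their lane. No column of values was left unused.

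Values were taken as log2(normalized count + 1), and limma 3.58.1 (R 4.3.3) fitted 5 group means to the 22 samples, with 17 residual degrees of freedom and 2.14 prior ones, and two-sided contrasts. A gene was called at a Benjamini-Hochberg adjusted p under 0.05 over the 420 tested genes. The other 235 endogenous genes were below the limit and were not tested. Fold changes on this scale understate the change of low genes. The procedure was tested on simulated data. Named besides the 4 genes were the 5 genes with the highest Pearson r with each, and up to 4 genes of each list with the smallest p. The 4 genes, the lists (hypoxia response, VEGF, prokineticin and HGF axes, other angiogenic factors, and markers of neutrophils, leukocytes, epithelium, endothelium, fibroblasts, monocytes and macrophages, dendritic cells and lymphocytes) and the tests were chosen with earlier results of these data known. Promoter sequences are from RefSeq, build GRCm38.p6. Alternatives changed the filter, pseudocount, scaling, background, cartridge, sample weights, replicate block and samples included. A planned test on barcode counts was not run. The values of 1 listed gene are not reported here.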

Additional observations from a re-analysis of the deposited data

How the results depend on the processing

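Over 32 results for the 4 genes (7 contrasts and the F test each), 34 alternative settings gave 1040 values, of which 897 kept both direction and side of the threshold, 95 lost the call, 17 gained one and 31 changed direction. Values below are log2 differences, or adjusted p for the F test (limma), and the causes were not tested. The scaling mattered most. Median centring gave, for Hif1a, -0.043 in ENT, 0.081 in ENT + CTLA4 and -0.17 in the triple combination against vehicle, -0.048 for anti-CTLA-4, -0.077 for anti-PD-1, -0.34 for the interaction and an F-test adjusted p of 0.657. For Vegfa it gave -0.092 in ENT, 0.19 in ENT + PD1, -0.065 in the triple combination, -0.19 for anti-CTLA-4, -0.13 for the interaction and an F-test adjusted p of 0.439, and for Prok2 0.55 in ENT. Quantile normalization gave, for Hif1a, -0.092 in ENT, -0.16 in ENT + PD1, 0.052 in ENT + CTLA4, -0.14 in the triple combination, 0.081 for anti-CTLA-4, -0.13 for anti-PD-1, -0.13 for the interaction and an F-test adjusted p of 0.609. It gave, for Vegfa, -0.15 in ENT, 0.0068 in ENT + PD1, -0.12 in the triple combination, -0.14 for anti-CTLA-4 and an F-test adjusted p of 0.528, for Prok2 0.36 in ENT, -0.25 in the triple combination, -0.028 for the interaction and an F-test adjusted p of 0.166, and for Hgf 0.25 in ENT + CTLA4 and -0.39 for anti-CTLA-4. These scalings moved the median gene by 0.54 and 0.58 in ENT, and the higher and lower calls there, 152 and 16 as deposited, became 95 and 81 centred and 94 and 83 after quantile normalization. For ENT + PD1 they were 86 and 6 as deposited and 71 and 34 after quantile normalization, and for anti-CTLA-4 9 and 126 as deposited, 77 and 102 centred and 77 and 90 after quantile normalization. The r of Laptm5 with Hif1a turned to -0.18 when centred.

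Background subtraction gave 0.43 for Vegfa in ENT and 0.49 in ENT + PD1, 1.10 for Prok2 in ENT, -0.27 in the triple combination and an F-test adjusted p of 0.103, and 0.20 for Hgf in ENT + CTLA4. With no filter, which tests more genes, calls were lost for Vegfa in ENT (0.45, adjusted p = 0.0839) and ENT + PD1 (0.50, 0.0899), Hgf in ENT + PD1 (1.23, 0.0579) and the Hif1a F test (0.0628). Cartridge as a block ended the anti-CTLA-4 calls (-0.41 Hif1a, -0.88 Vegfa, -1.15 Prok2, -1.36 Hgf), those in ENT + PD1 (0.67 Vegfa, 1.47 Hgf) and the F tests (0.239, 0.0525, 0.0861 and 0.0588 for Hif1a, Vegfa, Prok2 and Hgf). Cartridge 1 alone, with fewer samples, gave 0.47 for Hif1a in ENT, and in ENT + PD1 0.62 for Vegfa and 1.35 for Hgf. Sample weights added calls for Hif1a in ENT + PD1 (0.44) and the interaction (0.54), Vegfa for anti-PD-1 (0.41) and the interaction (0.83), Prok2 in ENT + PD1 (1.01), ENT + CTLA4 (-1.05), the triple combination (0.73), anti-PD-1 (0.75) and the interaction (2.07), and Hgf in the triple combination (1.19) and the interaction (2.15). Leaving out vehicle samples V1 and V2 ended the calls for Hif1a in ENT (0.40, adjusted p = 0.0898), Vegfa in ENT (0.52, 0.0748) and ENT + PD1 (0.56, 0.131), Prok2 in ENT (0.94, 0.0926), Hgf in ENT + PD1 (1.27, 0.131) and the Hif1a F test (0.0662), and gave -0.030 for Hif1a in the triple combination. With vehicle sample 3 and sample a of the triple combination left out, Hgf for anti-CTLA-4 was -0.82.

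Leaving out 1 sample at a time gave, for Hif1a, 0.41 to 0.61 in ENT, 0.29 to 0.42 in ENT + PD1, -0.045 to 0.081 for anti-PD-1 and F-test adjusted p of 0.00460 to 0.0875, and for Vegfa 0.35 to 0.53 in ENT and 0.43 to 0.54 in ENT + PD1. For Prok2 it gave 0.96 to 1.24 in ENT, 0.75 to 1.08 in ENT + PD1 and 1.00 to 1.83 for the interaction, and for Hgf 1.01 to 1.43 in ENT + PD1, -0.62 to 0.051 in ENT + CTLA4, -1.16 to -0.82 for anti-CTLA-4 and 1.49 to 2.21 for the interaction. Genes called over the panel then ran from 80 to 207 in ENT (168 with all samples), 1 to 140 in ENT + PD1 (92), 101 to 219 for anti-CTLA-4 (135) and 0 to 152 for the interaction (0). They were 54 and 0 in ENT and ENT + PD1 without V1 and V2, 43 in ENT + PD1 with no filter, 3 there and 0 for anti-CTLA-4 with cartridge as a block, and 298, 226, 18, 126, 290, 87 and 239 with sample weights, for ENT, ENT + PD1, ENT + CTLA4, the triple combination, anti-CTLA-4, anti-PD-1 and the interaction.

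Same-numbered samples of different groups deviated from their group means with r of -0.54 to 0.53 over 24 pairs (median -0.071), and the labels state no pairing, so they share only a number. A replicate block gave 0.40 for Hif1a in ENT (adjusted p = 0.0894) and an F-test adjusted p of 0.0759, -0.85 for Hgf with anti-CTLA-4 and 2.40 for its interaction (adjusted p = 0.0418), with 6, 1 and 56 genes called over the panel in the triple combination, for anti-PD-1 and for the interaction. The planned count tests on recovered barcodes were not run. Prok2 and Hgf are limited by few barcodes. Prok2 was above the brightest negative control of its lane in 21 of 22 samples, and Hgf in only 14 of 22.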

Other observations

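Markers of other cells that a tumour suspension can hold were also read. In ENT against vehicle 3 of 5 tested endothelial markers, 1 of 4 dendritic markers and 1 of 5 fibroblast and matrix markers were called higher by limma, and 2 of those 5 fibroblast and matrix markers lower, beside 36.2% of all tested genes called higher and 3.81% lower. None of 9 tested monocyte and macrophage markers was called there, although their median log2 difference was 0.64 against 0.50 for all tested genes. The endothelial markers Cdh5, Ptprb, Sele and Selp passed the background limit in ENT but not in vehicle. The same held for the dendritic marker Batf3 and the monocyte and macrophage marker Fcgr1. Their place among the tested genes thus depended on groups in which they were high. With anti-CTLA-4 under entinostat 1 dendritic marker was called lower, 1 fibroblast and matrix marker higher, and no endothelial or monocyte and macrophage marker either way, beside 30.0% of all tested genes called lower and 2.14% higher. The lymphocyte markers on the panel, Ms4a1 and Nkg7, did not reach the background limit in any group.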
